A study of Mus musculus with 20 samples.

Results

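Lpin1, Mttp, Cd36, Pparg and Cidea are 5 mouse genes of triglyceride handling, and their RNA was followed in liver of 20 mice bred in the FCG (core genotypes) scheme and later gonadectomized. The genes were taken as every probe whose symbol in the platform annotation was one of these names. Each gene had 1 probe, so the set held 5 of 23574 probes, or 5 of 11734 named genes among 21643 features tested. The members had been chosen by their measured log2 ratios on these arrays, in part by how those differed between gonadal males and gonadal females, and that difference is therefore given below as a description.

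The liver builds triglycerides from fatty acids that it takes up from blood or makes itself, stores them in lipid droplets, burns them during a fast and exports them in very low density lipoproteins (VLDL). Lipin-1, the Lpin1 product, is the phosphatidate phosphatase that makes diacylglycerol for triglyceride synthesis and also acts in the nucleus as a coactivator of genes of fatty acid oxidation. Hepatic Lpin1 is known to be induced by fasting and by glucocorticoids. The Mttp product loads triglyceride onto apolipoprotein B in the endoplasmic reticulum, which is needed for VLDL secretion. CD36 takes up long-chain fatty acids at the cell surface, PPAR gamma is a nuclear receptor that drives fat storage genes, and CIDEA is a lipid droplet protein best known from brown fat.

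The mice were C57BL/6J. Their Y chromosome (Y-) carries no Sry, the gene that starts testis development, while an Sry transgene sits on an autosome, so that gonads and sex chromosomes were inherited separately. The 4 groups of 5 mice were XX Sry and XY-Sry (gonadal males, with the transgene) and XX and XY- (gonadal females, without it). All 20 animals were kept on a chow of 4% fat, were gonadectomized at 8 weeks of age and were killed at 12 weeks after a 12-h fast, so that no group had gonads in the last 4 weeks and no group with intact gonads was measured. Liver RNA in Cy5 was hybridised against a common liver pool in Cy3, 1 array per animal. The study asked how gonadal type and sex chromosome complement, set apart by this cross, each relate to liver gene expression.

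Every value below is the log2 ratio of a liver to the pool for 1 probe: 0 means the same signal as the pool, 1 means a signal 2 times that of the pool, and levels of different genes cannot be set against each other. One library went against its label. The library labelled XY- 30 had log2 ratios of -3.90 for Eif2s3y and -3.16 for Kdm5d, which are Y-linked genes, whereas the other 9 XY livers had 0.57 to 1.34 and 0.14 to 1.37. It was kept under its label, and XX minus XY averaged over gonadal types and the interaction are given with and without it. The comparison of XX with XY- livers alone is given with it only. The arrays XX 2, XX 6, XY- 3 and XY- 12 had a wider spread of log2 ratios than the others (SD above 0.3), and all 4 were livers of gonadal females. Array pairs correlated between -0.543 and 0.684 over all features, with 9 of 190 pairs below -0.3. The labels put the liver in Cy5 and the pool in Cy3, the values of the Y-linked genes read as liver over pool, and that direction was used for every array. The 7 measured hepatocyte markers averaged between -0.17 and 0.11 on the arrays of gonadal males and between -0.17 and 0.23 on those of gonadal females, and 0 of 7 passed the test between gonadal types (smallest limma adjusted p = 0.551). A ratio to a liver pool carries no absolute level of such markers.

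Lpin1 was higher in gonadal males of both sex chromosome complements, and its difference was the widest of the 5 genes. The log2 ratios of Lpin1 (mouse gene ID 14245, chromosome 12) were -0.52, 0.32, 1.02, 0.84 and 0.23 in XX Sry livers, against -1.56, -1.09, -1.22, -1.66 and -2.05 in XX livers. These ranges did not overlap, a separation that 4.36% of all features showed between the same groups. Lpin1 stood at 0.38, -0.40, 0.42, 0.96 and 0.59 in XY-Sry livers, against -0.33, -1.95, -1.46, -0.85 and -0.70 in XY- livers. Here XY-Sry 27 lay just below XY- 12, and the other 4 XY-Sry livers lay above every XY- liver. In all, 8 of 10 gonadal males were above the pool, and 0 of 10 gonadal females were. Lpin1 averaged 0.38 ± 0.52 in gonadal males and -1.29 ± 0.55 in gonadal females (SD, n = 10 each), a difference of 1.67 ± 0.22 (limma SE), or 3.18-fold on the linear scale. The difference was 1.89 ± 0.32 between XX Sry and XX and 1.45 ± 0.32 between XY-Sry and XY- livers. Without the library labelled XY- 30, whose Lpin1 ratio was the lowest of its group, the last value was 1.22 ± 0.31. Of all features, 99.9% had a smaller difference between gonadal types than Lpin1.

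Mttp moved the same way over a much narrower span. Mttp (gene ID 17777, chromosome 3) had log2 ratios of 0.02, 0.25, 0.18, 0.23 and 0.20 in XX Sry livers, against 0.04, -0.84, -0.25, -0.09 and -0.68 in XX livers. All 5 XX Sry livers were above the pool, and XX 29 was the 1 XX liver that reached into their range. Mttp stood at 0.26, -0.03, 0.37, 0.22 and -0.14 in XY-Sry livers, against -0.27, -0.34, -0.17, -0.24 and -0.32 in XY- livers. These ranges did not overlap, which held for 1.49% of all features. Mttp averaged 0.16 ± 0.16 in gonadal males and -0.32 ± 0.26 in gonadal females (SD, n = 10 each), a difference of 0.47 ± 0.10, or 1.39-fold. It was 0.54 ± 0.14 between XX Sry and XX livers and 0.40 ± 0.14 between XY-Sry and XY- livers. The lowest Mttp ratios, -0.84 and -0.68, were on the wide arrays XX 6 and XX 2, and without the 4 wide arrays the difference between XX Sry and XX livers was 0.28 ± 0.11. Over 10 against 10 arrays both Lpin1 and Mttp overlapped between gonadal types, by XY- 12 for Lpin1 and by XX 29 and XX 35 for Mttp, while 0.342% of features did not overlap.

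The windows of 250 bases before the listed start sites of Lpin1 and Mttp are shown because both genes stood higher in gonadal males together. They come from RefSeq on GRCm38.p6, at chr12:16610967-16611216 for Lpin1 and chr3:138143419-138143668 for Mttp, both on the minus strand and written 5′ to 3′. Capitals mark matches to AGGTCA, the half-site of many nuclear receptors, and to AGAACA, the half-site of the glucocorticoid receptor, each searched on both strands (the letters of the other strand read TGACCT and TGTTCT).
Lpin1: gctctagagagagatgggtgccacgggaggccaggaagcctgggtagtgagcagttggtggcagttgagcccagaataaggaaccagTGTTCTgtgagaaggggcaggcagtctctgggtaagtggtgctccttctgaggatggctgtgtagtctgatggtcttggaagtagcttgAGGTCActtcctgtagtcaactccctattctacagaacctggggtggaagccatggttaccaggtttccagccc
Mttp: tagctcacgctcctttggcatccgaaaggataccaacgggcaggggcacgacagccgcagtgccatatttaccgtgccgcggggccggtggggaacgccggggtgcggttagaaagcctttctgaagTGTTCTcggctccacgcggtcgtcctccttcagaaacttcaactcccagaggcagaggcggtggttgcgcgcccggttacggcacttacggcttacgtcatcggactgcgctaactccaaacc
The Lpin1 window held AGGTCA at -74 to -69, counted from the start site, and TGTTCT at -163 to -158. The Mttp window held TGTTCT at -123 to -118 and no AGGTCA. Of 32851 promoter windows in the same table, 14.0% held AGGTCA and 16.1% held AGAACA on either strand, so such letters are common. TATAAA, searched on the given strand, was in neither window and in 7.59% of the windows kept. A match is a run of letters and not a shown binding site. Promoter windows matched 4 of the 5 genes. The single listed Cd36 window held TGACCT, and 2 of the 3 Pparg windows held AGGTCA.

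**Figure D1:**
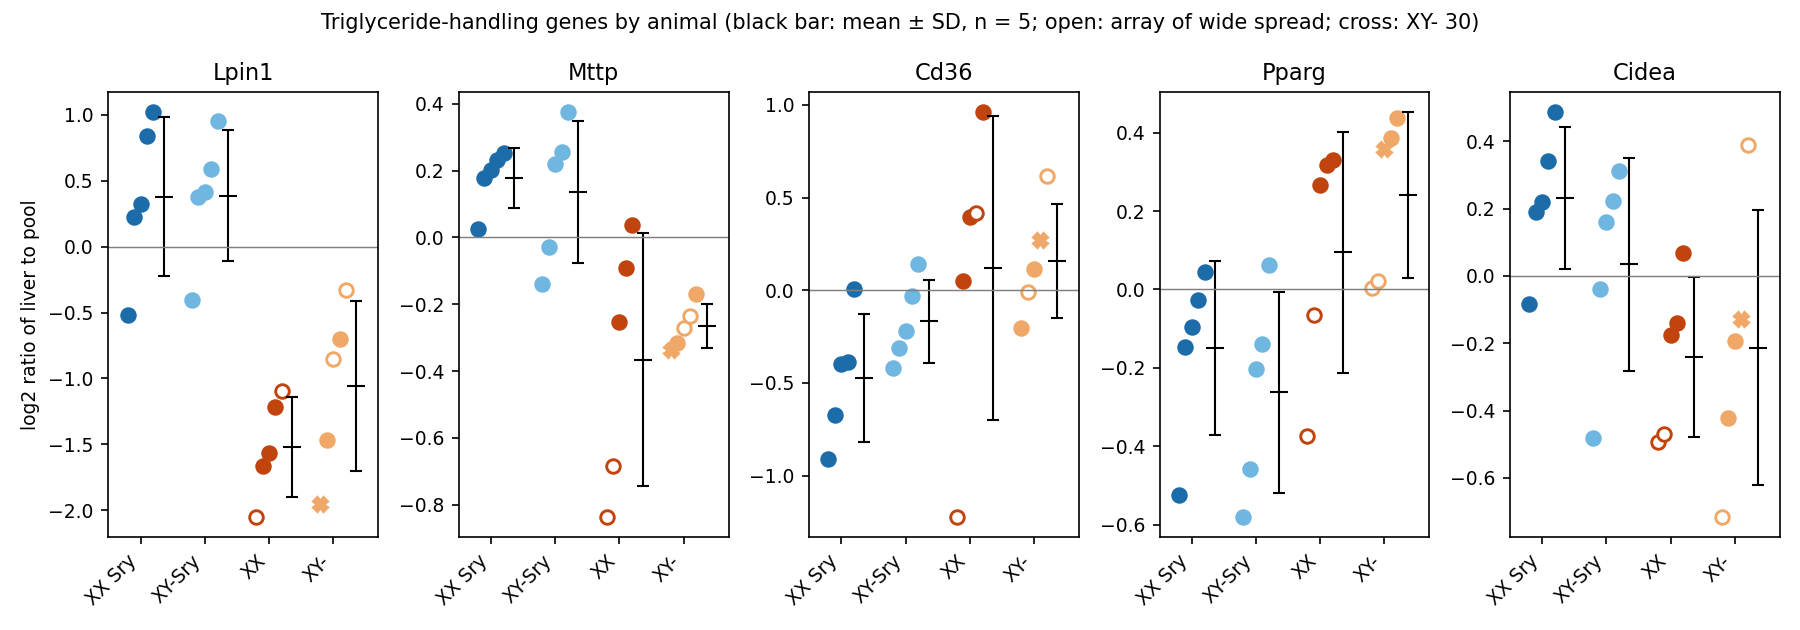
Log2 ratio of liver to pool (vertical axis, a separate scale for each gene) for the 5 genes in the 5 livers of each group, with XX Sry and XY-Sry left of XX and XY-. Points are animals, black bars are group means ± SD, open points are the 4 wide arrays and the cross is the library labelled XY- 30. Lpin1 ran from -0.52 to 1.02 in gonadal males and from -2.05 to -0.33 in gonadal females, whereas the ranges of Cd36, Pparg and Cidea overlapped widely.

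Cd36 and Pparg stood lower in gonadal males. Cd36 (gene ID 12491, chromosome 5) had log2 ratios of -0.38, 0.01, -0.40, -0.91 and -0.67 in XX Sry livers, against 0.96, 0.42, 0.40, 0.05 and -1.22 in XX livers. XX 2 had the lowest Cd36 ratio of all 20 livers, and the other 4 XX livers lay above every XX Sry liver. Cd36 stood at 0.14, -0.42, -0.31, -0.03 and -0.22 in XY-Sry livers, against 0.61, 0.27, 0.12, -0.01 and -0.20 in XY- livers, and these ranges overlapped. Cd36 averaged -0.32 ± 0.32 in gonadal males and 0.14 ± 0.58 in gonadal females (SD, n = 10 each), a difference of -0.46 ± 0.20, or 1.37-fold lower. Between XX Sry and XX livers it was -0.59 ± 0.28. Single libraries moved that value: it was -0.93 without XX 2, -0.94 without all 4 wide arrays and -0.38 without XX 29. Between XY-Sry and XY- livers it was -0.32 ± 0.28, and -0.21 without XY- 12.

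Pparg (gene ID 19016, chromosome 6) had log2 ratios of 0.05, -0.15, -0.52, -0.10 and -0.03 in XX Sry livers, against 0.33, -0.37, 0.32, 0.27 and -0.06 in XX livers. Both XX livers below the pool were on wide arrays, XX 6 and XX 2. Pparg stood at -0.20, -0.14, 0.06, -0.58 and -0.46 in XY-Sry livers, against 0.02, 0.36, 0.44, 0.00 and 0.39 in XY- livers. Of the XY-Sry livers, XY-Sry 20 reached into the XY- range and the other 4 lay below it. Pparg averaged -0.21 ± 0.23 in gonadal males and 0.17 ± 0.26 in gonadal females (SD, n = 10 each), a difference of -0.37 ± 0.11, or 1.30-fold lower. The difference was -0.24 ± 0.15 between XX Sry and XX livers and -0.50 ± 0.15 between XY-Sry and XY- livers. Without the 4 wide arrays these values were -0.45 ± 0.13 and -0.66 ± 0.13, and without XX Sry 9 the XX value was -0.15. Which isoforms of Pparg or Lpin1 the probes detect could not be worked out, because no probe sequences were available here.

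Cidea stood slightly higher in gonadal males, with wide overlap. Cidea (gene ID 12683, chromosome 18) had log2 ratios of 0.34, 0.49, -0.08, 0.22 and 0.19 in XX Sry livers, against 0.07, -0.49, -0.18, -0.14 and -0.47 in XX livers. XX Sry 9 lay within the XX range and the other 4 XX Sry livers lay above it. Cidea stood at 0.31, 0.16, 0.22, -0.48 and -0.04 in XY-Sry livers, against 0.39, -0.13, -0.19, -0.72 and -0.42 in XY- livers. Both the highest and the lowest of these 10 values were on wide arrays of XY- livers, XY- 12 and XY- 3. Cidea averaged 0.13 ± 0.27 in gonadal males and -0.23 ± 0.32 in gonadal females (SD, n = 10 each), a difference of 0.36 ± 0.13, or 1.28-fold. It was 0.47 ± 0.18 between XX Sry and XX livers and 0.25 ± 0.18 between XY-Sry and XY- livers. Without the 4 wide arrays, which include the lowest XX livers 6 and 2, the XX value was 0.31 ± 0.16. The XY- value was 0.12 without XY- 3, 0.40 without XY- 12 and 0.38 without XY-Sry 5.

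The order of the group means was XY-Sry, XX Sry, XY- and XX for Lpin1 and XX Sry, XY-Sry, XY- and XX for Mttp and Cidea, from high to low. For Cd36 and Pparg the XY- livers came highest, followed by XX. Cd36 was lowest in XX Sry and Pparg was lowest in XY-Sry livers. Neighbours in these orders that shared a gonadal type did not differ past the limma threshold for any of the 5 genes (adjusted p = 1.0 for each between XX Sry and XY-Sry livers, and from 0.771 to 0.987 between XX and XY- livers). The widest of these differences were -0.46 ± 0.32 for Lpin1 between XX and XY- livers and -0.30 ± 0.28 for Cd36 between XX Sry and XY-Sry livers. The XX and XY- values include the library labelled XY- 30, whose Lpin1 ratio of -1.95 was the lowest of its group. Across all features 0 passed by limma between XX and XY- livers with that library, and 8 passed without it. Values of the 5 genes between XX and XY- livers without it are not given. Lpin1 also varied the most within groups, with a mean SD of 0.53, against 0.19 for Mttp, 0.25 for Pparg, 0.29 for Cidea and 0.42 for Cd36.

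Sex chromosome complement made no difference past the threshold for any of the 5 genes. Averaged over gonadal types, XX minus XY was -0.23 for Lpin1 (95% interval -0.70 to 0.24, limma adjusted p = 0.933), and without the library labelled XY- 30 it was -0.35 (adjusted p = 0.8). It was -0.03 for Mttp (-0.23 to 0.17, limma adjusted p = 0.972) and -0.17 for Cd36 (-0.59 to 0.25, limma adjusted p = 0.935). It was -0.02 for Pparg (-0.24 to 0.21, limma adjusted p = 0.985) and 0.08 for Cidea (-0.18 to 0.35, limma adjusted p = 0.947). Without XY- 30 these values were -0.04 for Mttp, -0.16 for Cd36, -0.002 for Pparg and 0.095 for Cidea, with limma adjusted p from 0.912 to 0.999. The interval of Cd36 reached past the size of its difference between gonadal types, and the intervals of the other 4 genes stopped short of theirs. Across all features 0.0277% passed this test, and 1099 features had an unadjusted p below 0.05.

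The test of whether the Sry difference itself depended on the sex chromosomes gave an interaction (XX minus XY-) of 0.45 ± 0.45 for Lpin1, with a 95% interval from -0.49 to 1.39. It was 0.14 ± 0.19 for Mttp, -0.27 ± 0.40 for Cd36, 0.26 ± 0.21 for Pparg and 0.23 ± 0.25 for Cidea. Each of the 5 genes had a limma adjusted p of 0.9995 here. Without the library labelled XY- 30 the interaction was 0.67 for Lpin1, 0.16 for Mttp, -0.30 for Cd36, 0.23 for Pparg and 0.20 for Cidea. Without the 4 wide arrays the interaction of Cd36 was -0.71 ± 0.30 (limma adjusted p = 0.631) and that of Lpin1 0.10 ± 0.49. None of the 21643 features passed (0.0%), while 563 had an unadjusted p below 0.05.

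**Figure D2:**
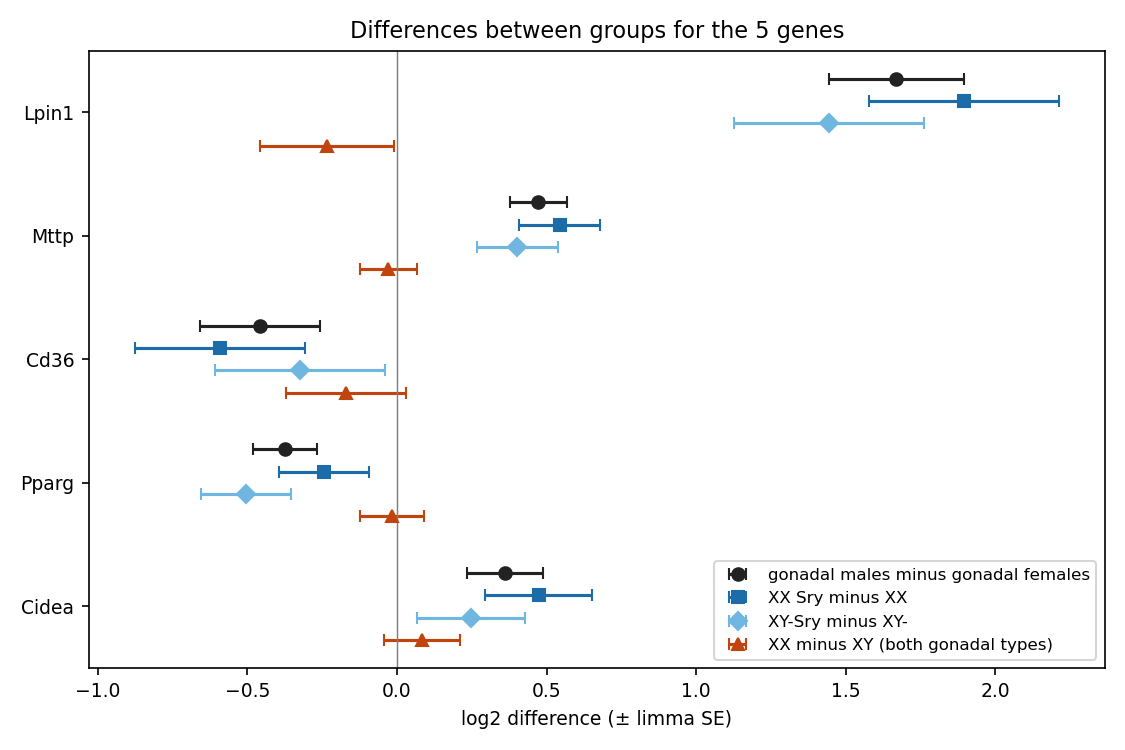
Log2 differences of the 5 genes with limma standard errors (horizontal axis) for gonadal males minus gonadal females, for XX Sry minus XX, for XY-Sry minus XY- and for XX minus XY. Lpin1 lay at 1.67 between gonadal types and at -0.23 between XX and XY, and for each gene the XX Sry minus XX and XY-Sry minus XY- values lay on the same side of 0.

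Across animals, Lpin1 ran with Mttp and against Pparg, and the 2 pairs differed once the step between groups was taken out. All 20 ratios share the pool channel, and a correlation pooled over groups holds the difference between gonadal types, so Pearson's r is given over all arrays, with group means removed and within each gonadal type, as a description. Lpin1 and Mttp had r = 0.704 over 20 arrays (Spearman's rho 0.686), and 0.124 once group means were removed. Within gonadal types r was 0.387 in gonadal males and 0.054 in gonadal females (n = 10 each). Most of the pooled correlation of this pair was absent once the step between groups was taken out.

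Lpin1 and Pparg ran in opposite directions, with r = -0.698 over 20 arrays and -0.523 with group means removed. The value was -0.657 in gonadal males and -0.198 in gonadal females, and -0.873 over the 16 arrays without the 4 wide ones. The gonadal males with the highest Lpin1 ratios, XX Sry 9 at 1.02 and XY-Sry 5 at 0.96, had the lowest Pparg ratios among XX Sry and XY-Sry livers, -0.52 and -0.58. How far the value of -0.657 in gonadal males rests on these 2 livers was not worked out. Pparg and Cidea had r = 0.015 over all arrays, since their differences between gonadal types were of opposite sign, but 0.522 with group means removed. Within gonadal males that value was 0.803, and within gonadal females 0.327. The livers XY-Sry 5 and XX Sry 9 were lowest in both genes among gonadal males. Without those 2 arrays the pooled r was -0.169, and the value within gonadal males without them was not worked out.

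Mttp and Cidea had r = 0.604 over all arrays and 0.346 with group means removed. Mttp and Pparg had -0.177 and 0.556 on the same measures, but without the wide arrays XX 6 and XX 2 the pooled value was -0.536. Without all 4 wide arrays the value with group means removed was 0.214. Cd36 had no pooled r beyond 0.3 in size with any of the other 4 genes. Its pooled r was -0.282 with Lpin1, and this was -0.592 without XX 2 and XY- 30, the arrays farthest from the median of Lpin1.

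**Figure D3:**
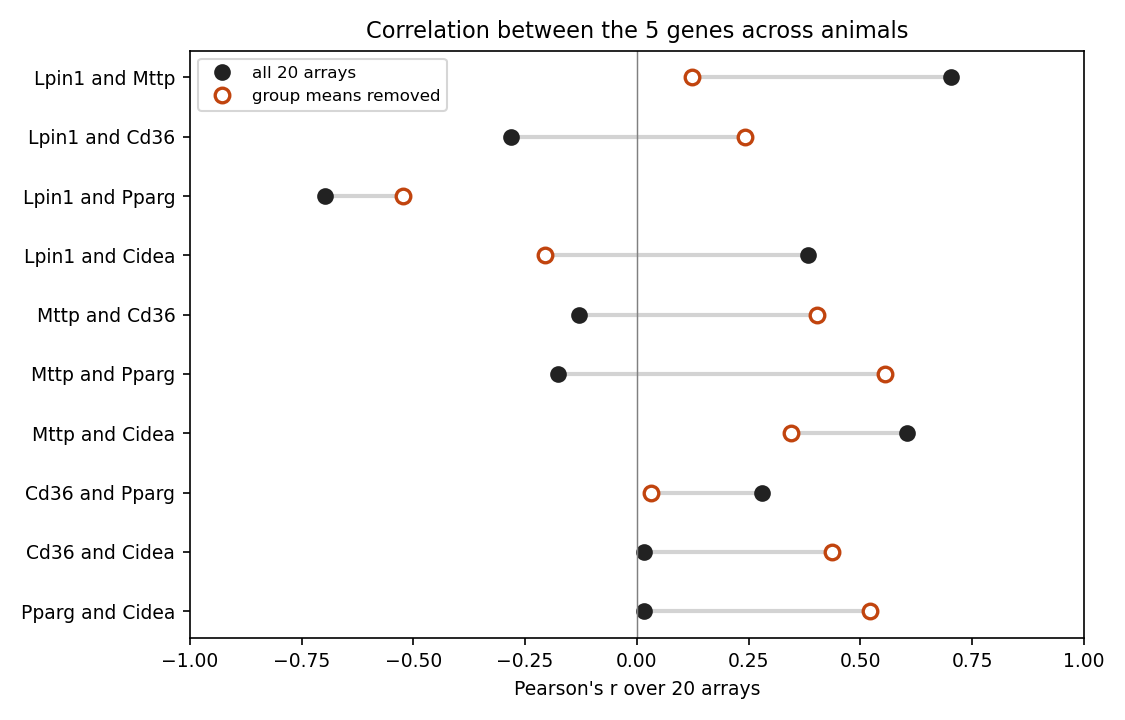
Pearson's r for the 10 pairs of the 5 genes over 20 arrays (horizontal axis), with filled points for all arrays and open points after group means were removed. Lpin1 and Mttp moved to 0.124 after removal, against 0.704 before it, and Lpin1 and Pparg stayed below 0 at -0.523, against -0.698.

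The genes whose ratios ran most like each of the 5 were ranked by Pearson's r over the 20 arrays among the other 11733 named genes. Lpin1 was followed most closely by Fkbp5, which encodes a co-chaperone of the glucocorticoid receptor and is a known target of that receptor (r = 0.926). The value was 0.842 with group means removed, 0.895 within gonadal males, 0.703 within gonadal females and 0.951 without the 4 wide arrays. Fkbp5 stood at -0.14, 0.32, 1.17, 0.45 and -0.04 in XX Sry livers, against -1.21, 0.03, -0.72, -1.19 and -1.45 in XX livers. It stood at 0.18, -0.66, 0.10, 1.16 and 0.58 in XY-Sry livers, against -0.38, -1.30, -1.04, -0.79 and -0.99 in XY- livers. Both genes were highest in XX Sry 9 and XY-Sry 5 and lowest in XX 2 and XY- 30, and the liver off this line was XX 6, a wide array with a Fkbp5 ratio of 0.03 and a Lpin1 ratio of -1.09. Next came Mtss1 at 0.890, which encodes an actin-binding scaffold protein, and Rrm2 at 0.880, a subunit of ribonucleotide reductase. A1bg, a plasma glycoprotein gene, ran most strongly the other way at -0.891, followed by Mmd2 at -0.848.

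**Figure D4:**
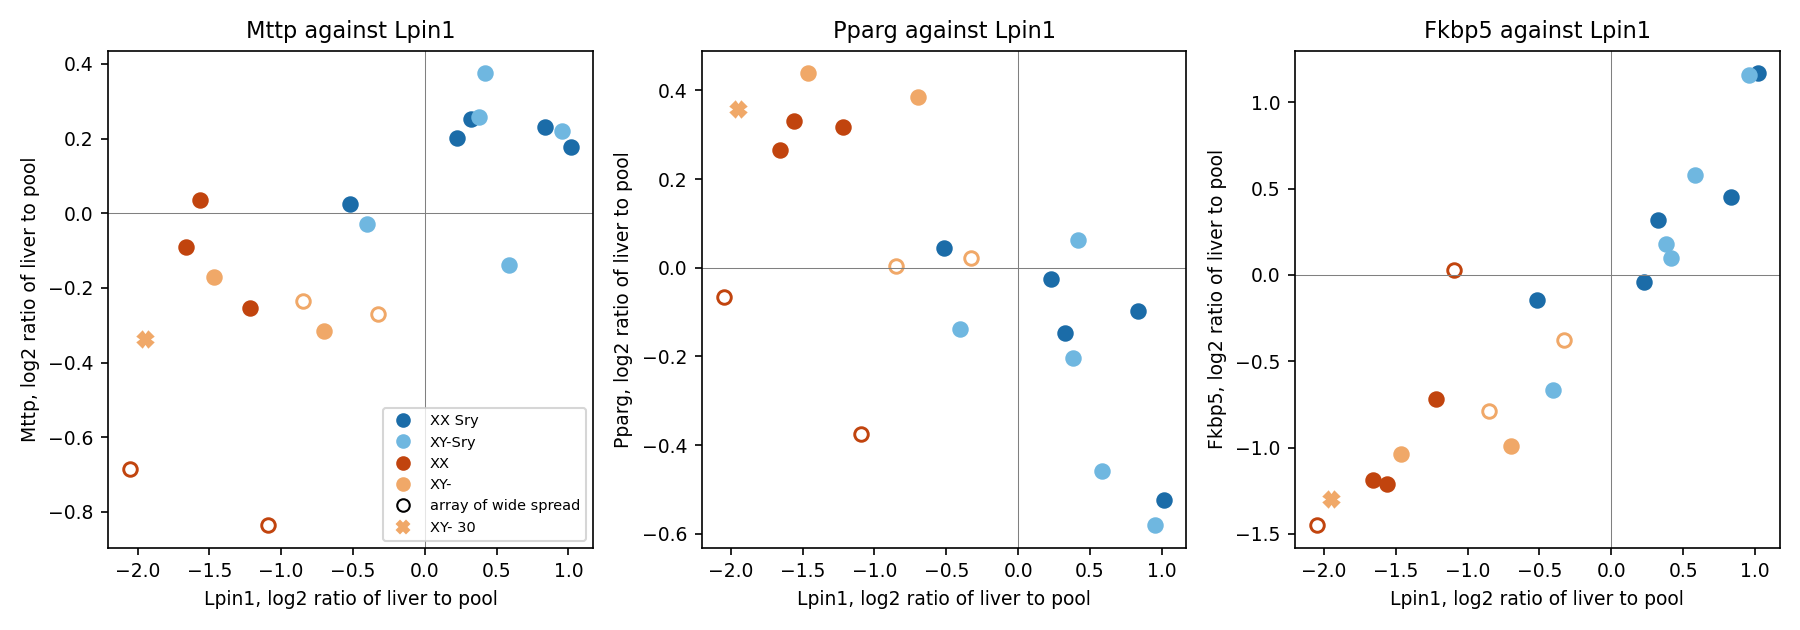
Log2 ratios to the pool of Mttp, Pparg and Fkbp5 (vertical axes) against Lpin1 (horizontal axes) in 20 livers, with open points for the 4 wide arrays and a cross for the library labelled XY- 30. Fkbp5 rose with Lpin1 within both gonadal types (r = 0.895 in gonadal males and 0.703 in gonadal females), Mttp was higher in most gonadal males but overlapped between gonadal types, and Pparg fell as Lpin1 rose (r = -0.698 over all arrays).

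The Mttp ratios ran most like those of St3gal5, the ganglioside GM3 synthase (0.891), Psmc1, a proteasome subunit (0.874), and Wdr75 (0.856). Lama1, a laminin chain, was lowest at -0.918, followed by Il15, an interleukin, at -0.881. For St3gal5 the value was 0.399 in gonadal males and 0.836 in gonadal females, where XX 6 and XX 2 were lowest in both genes. The nearest gene to Cd36 reached 0.759 (Gm336), less than for the other 4 genes. It was followed by Sec22a at 0.736 and P2ry14 at 0.71, with Nat14 at -0.809 and Cxxc4 at -0.793 at the other end. Pparg was followed by Mta3 at 0.874, Stxbp2 at 0.870 and the probe that the platform names ESR2 at 0.869, and opposed by P4ha2 at -0.832 and Itch at -0.829. Cidea was followed by Hnrnpdl at 0.861, Zfp618 at 0.851 and Rpf2 at 0.848, and opposed by Epb4.1l1 at -0.858 and Acat3 at -0.844. With 20 arrays and 11733 candidates such values are descriptions of these livers.

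Around the 5 genes, 137 other genes of 8 pathway lists were measured, and between gonadal types 6 of them passed, 3 in each direction. That share, 4.38%, is close to the 3.74% of all features, of which 1.46% were higher and 2.28% lower in gonadal males. The median difference of the 137 genes was 0.03, against 0.01 for all features. Between XX and XY livers 0 of the 137 passed by limma.

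In glycerolipid synthesis, the list around Lpin1, 1 of 16 genes passed. Gpat2, a glycerol-3-phosphate acyltransferase of mitochondria, averaged -0.08 ± 0.08 in gonadal males and 0.17 ± 0.14 in gonadal females (SD, n = 10 each), a difference of -0.25 (limma adjusted p = 0.00246). Lpin2, the lipin family member that is abundant in liver, averaged 0.23 ± 0.21 in gonadal males and -0.46 ± 0.72 in gonadal females, a difference of 0.69 that did not pass (limma adjusted p = 0.0983). Named for their roles after their values were seen, Lpin3 had a difference of 0.05, and Dgat1 and Dgat2, the enzymes of the last step to triglyceride, had -0.05 and 0.09 (limma adjusted p from 0.716 to 0.877). The median of the list was -0.03.

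Of 19 genes of VLDL assembly around Mttp, 0 passed. Pltp, the phospholipid transfer protein gene, had -0.47 (limma adjusted p = 0.0644). Apobec1, which edits the apolipoprotein B transcript, had -0.45 (limma adjusted p = 0.0752). Apob, named for its role after its value was seen, had -0.46 ± 0.28 (limma adjusted p = 0.448). Of 16 other genes of fatty acid uptake and binding around Cd36, 0 passed. Scarb1, the high density lipoprotein receptor gene, had -0.42 (limma adjusted p = 0.0592), and it passed without the library labelled XY- 30 (adjusted p = 0.0406). Got2, an aspartate aminotransferase that also binds fatty acids at the plasma membrane, had -0.11 (limma adjusted p = 0.268).

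Of 16 genes of lipid droplets and lipolysis around Cidea, 1 passed. Soat2, which esterifies cholesterol, averaged -0.13 ± 0.11 in gonadal males and 0.15 ± 0.20 in gonadal females (SD, n = 10 each), a difference of -0.28 (limma adjusted p = 0.0401) that no longer passed in 14 of 20 fits that left out 1 animal each. Hsd17b13, which encodes a liver lipid droplet protein, had 0.35 (limma adjusted p = 0.0521). Of 19 partners and targets of PPAR gamma, 0 passed. Insig2, which holds SREBP in the endoplasmic reticulum, had 0.56 (limma adjusted p = 0.0592), and passed without XY- 30 (adjusted p = 0.0484). Ppargc1a, the coactivator PGC-1 alpha, had 0.67 (limma adjusted p = 0.0963).

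In the glucocorticoid and fasting list 3 of 26 genes passed, and all 3 were higher in gonadal males, as were 1.46% of all features. Fkbp5 averaged 0.31 ± 0.57 in gonadal males and -0.90 ± 0.45 in gonadal females (SD, n = 10 each), a difference of 1.21, or 2.32-fold (limma adjusted p = 0.00603), and passed in each of 20 fits without 1 animal. Irs2, an insulin receptor substrate, averaged 0.14 ± 0.58 in gonadal males and -0.70 ± 0.45 in gonadal females, a difference of 0.84 (limma adjusted p = 0.0357). Got1, the cytosolic aspartate aminotransferase, averaged 0.17 ± 0.33 in gonadal males and -0.52 ± 0.51 in gonadal females, a difference of 0.68 (limma adjusted p = 0.0387). Irs2 no longer passed in 9 of those 20 fits and Got1 in 15, and neither passed without the 4 wide arrays. The median of this list was 0.05, with 17 of 26 genes above 0 and 9 below. Of those below, named after their values were seen, Tsc22d3 had -0.28, Dusp1 -0.27 and Sgk1 -0.20, and none of them passed.

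Of 19 genes of PPAR alpha and fatty acid oxidation 0 passed, although 17 lay above 0 and the median was 0.25. Cyp4a14, a fatty acid hydroxylase, had 0.46 (limma adjusted p = 0.0955), and Cpt2, which frees acyl groups for oxidation in mitochondria, had 0.25 (limma adjusted p = 0.191). The list's array mean ran from -0.13 to 0.25 in gonadal males and from -1.32 to 0.18 in gonadal females, and the lowest values, -1.32 and -0.75, were on the wide arrays XX 6 and XY- 3. Of 19 genes of lipogenesis 1 passed, and it was lower in gonadal males. Acss2, an acetyl-CoA synthetase, averaged -0.36 ± 0.16 in gonadal males and 0.18 ± 0.38 in gonadal females (SD, n = 10 each), a difference of -0.55 (limma adjusted p = 0.0129). The median of the list was -0.14, with 14 of 19 genes below 0.

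Markers of other cell types moved between gonadal types as well. Of 57 marker genes in 6 lists 15 passed, all lower in gonadal males (26.3%, against 2.28% of all features that were lower). In whole liver, fewer cells of a type and less RNA per cell cannot be told apart. Kupffer cell and macrophage markers gave 6 of 15 lower with a median of -0.82, and the list's array mean ran from -0.81 to 0.38 in gonadal males and from -0.29 to 1.5 in gonadal females. Lymphocyte markers gave 6 of 12 lower with a median of -0.14, and array means from -0.32 to -0.08 in gonadal males and from -0.02 to 0.64 in gonadal females. Stellate cell and fibroblast markers gave 2 of 7 lower, Col1a1 at -0.87 (limma adjusted p = 0.0172) and Pdgfrb at -0.39 (limma adjusted p = 0.0309), and array means from -0.23 to 0.05 in gonadal males and from -0.08 to 0.36 in gonadal females. Adipocyte markers gave 1 of 9 lower, Car3 at -1.05 (limma adjusted p = 0.0285), which hepatocytes also express. Their array means ran from -0.15 to 0.05 in gonadal males and from -0.08 to 0.24 in gonadal females, and 0 of 7 markers of sinusoidal endothelium passed. For each of these lists the highest array mean among gonadal females was on a wide array, XX 6 for adipocyte markers and XY- 12 for the others.

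Set against these lists over the 20 arrays, Mttp had r = -0.815 with the mean of the stellate cell markers, -0.782 with the lymphocyte markers, -0.779 with the adipocyte markers and -0.666 with the hepatocyte markers. With group means removed these values were -0.588, -0.485, -0.620 and -0.663. Pparg had -0.092 with the adipocyte markers and -0.235 with the hepatocyte markers, but -0.716 and -0.691 with group means removed. Cidea had -0.755 with the adipocyte markers, and -0.647 with group means removed. Car3, which hepatocytes also express, varied the most of the adipocyte markers, with an SD of 0.52 in gonadal males and 0.73 in gonadal females. Fabp4 came next with 0.19 and 0.51. The adipocyte values of Mttp, Pparg and Cidea can therefore follow Car3, and values without it were not worked out. Cd36, which macrophages and endothelium also express, had 0.521 with the Kupffer cell markers and 0.301 with group means removed. Lpin1 had -0.622 with the stellate cell markers, and 0.016 with group means removed. Mttp also had -0.613 with the SD of the array's log2 ratios, and Pparg -0.098, which was -0.607 with group means removed. The part of other cell types and of array spread in the differences of the 5 genes was not tested.

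**Figure D5:**
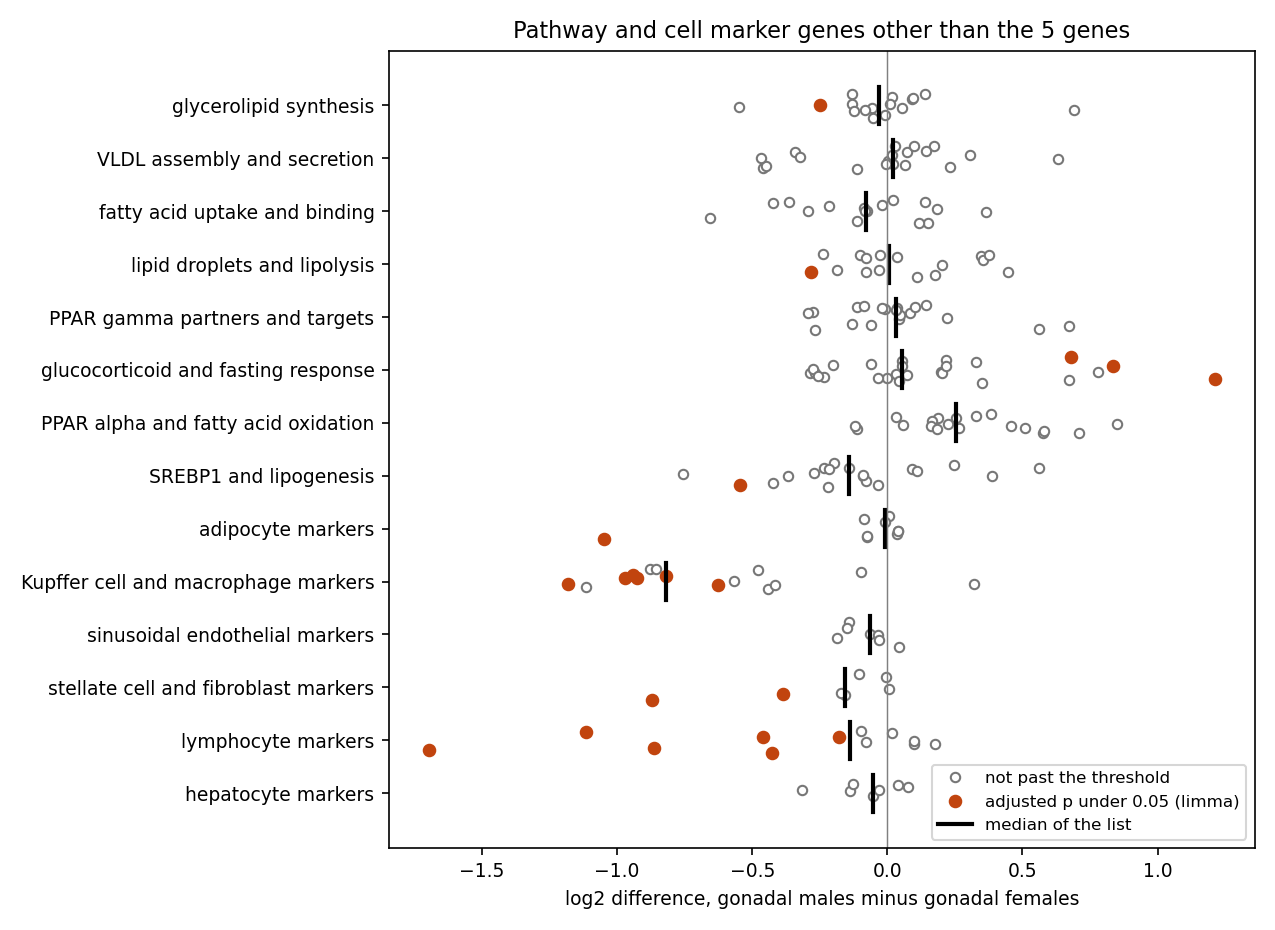
Log2 difference between gonadal males and gonadal females (horizontal axis) for each gene of 8 pathway and 6 cell marker lists without the 5 genes, with filled points past a limma adjusted p of 0.05 and a bar at the list's median. Fkbp5 at 1.21 is the rightmost point, the Kupffer cell list has a median of -0.82, and the PPAR alpha list has a median of 0.25 with 0 genes past the threshold.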

How the data were processed

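Liver RNA of 20 mice was measured on 2-colour arrays, against a common pool, with the pool in Cy3 and the liver in Cy5, per the labels. RNA was extracted on RNeasy columns with DNase, per the labels' protocols, and labelled by an aminoallyl MessageAmp II procedure. The labels describe the pool as liver of 17 mice and the design text as equal portions of every sample. The deposited values are log10 ratios made by the authors, and how they normalized the dyes and corrected background is not given in the sources used here. Base 10 and liver over pool were read from the values: in base 10, Eif2s3y stood at 1.74 ± 0.33 times the pool in 9 XY livers (SD), against 1.18 in base 2. Another base would scale all log2 differences alike, with no change to p-values from limma. Ratios carry no intensity, so no filter on dim spots and no depth could be had, and the number of arrays limits the precision. Of 23574 probes, the platform annotation listed 13713. Names came from an Entrez ID for 12662, from an accession for 4 and from the platform's own symbol for 999, while 48 named several genes and 9861 were not listed. Probes of a gene were averaged, giving 21643 features, of which 1244 held over 1 probe. The deposited scale ends at a size of 2, which 29 values reached, and 2 were missing, none of them in the 5 genes.

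Values were converted to log2 and fitted with limma 3.58.1 in R 4.3.3, with 4 group means and Benjamini-Hochberg adjustment over all features at 0.05. The members and lists were chosen with earlier results of these data known, and the difference between gonadal types of the 5 genes therefore has no p-value. The pathway lists were glycerolipid synthesis, VLDL assembly, fatty acid uptake, lipid droplets, PPAR gamma partners, glucocorticoid and fasting response, PPAR alpha and lipogenesis. The marker lists were adipocytes, Kupffer cells, sinusoidal endothelium, stellate cells, lymphocytes and hepatocytes. Named were the genes of each pathway list past the threshold, or its 2 with the smallest p where fewer than 2 passed, and for each of the 5 genes the 3 highest and 2 lowest by Pearson's r. Promoter windows came from RefSeq, without those on chromosome 18. Labels name separate animals by number and pair none. Alternatives were centring, scaling, quantile normalization, array weights, robust moderation, values at the limit left out, and fits without XY- 30, without the 4 wide arrays, and without each animal.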

Additional observations from a re-analysis of the deposited data

How the results depend on the processing

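Differences of the 5 genes between gonadal types kept direction in 145 of 145 alternative values. So did XY-Sry minus XY-, which robust moderation and fits without XX or XX Sry animals cannot move. With 1 animal left out the differences between gonadal types ranged from 1.56 to 1.78 for Lpin1, 0.41 to 0.52 for Mttp, -0.63 to -0.35 for Cd36, -0.43 to -0.33 for Pparg and 0.30 to 0.44 for Cidea. Between XX Sry and XX livers they ranged from 1.73 to 2.12, 0.43 to 0.64, -0.93 to -0.38, -0.36 to -0.15 and 0.41 to 0.55, and between XY-Sry and XY- livers from 1.22 to 1.64, 0.34 to 0.47, -0.42 to -0.21, -0.59 to -0.42 and 0.12 to 0.40, in the same order of genes. Without the 4 wide arrays Mttp between XX Sry and XX was 0.28, also without these and XY- 30 (chosen after seeing the data).

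XX minus XY values near 0 turned sign, and none of those that did had an adjusted p below 0.8. Mttp was 0.0069 with arrays scaled to a common spread, 0.0103 with array weights, 0.106 without the 4 wide arrays and 0.0903 without these and XY- 30. Cd36 was 0.0516 and Pparg 0.0119 without the wide arrays, and 0.104 and 0.0029 without these and XY- 30. With 1 animal left out they ranged from -0.35 to -0.12 for Lpin1, -0.0799 to 0.0292 for Mttp, -0.28 to -0.0028 for Cd36, -0.0563 to 0.0421 for Pparg and 0.02 to 0.16 for Cidea. The interaction of Mttp was -0.13 without the wide arrays and -0.10 without these and XY- 30, where that of Cidea was -0.0275. Without the wide arrays XX minus XY was -0.0592 for Lpin1 and 0.18 for Cidea, and the interaction was 0.10 for Lpin1, -0.71 for Cd36, 0.20 for Pparg and 0.0324 for Cidea. Left-out animals gave interactions of 0.25 to 0.67 for Lpin1, 0.02 to 0.24 for Mttp, -0.60 to -0.06 for Cd36, 0.14 to 0.35 for Pparg and 0.07 to 0.35 for Cidea.

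With group means removed the correlations were: Lpin1 with Mttp 0.124, with Cd36 0.243, with Pparg -0.523 and with Cidea -0.205, Mttp with Cd36 0.404, with Pparg 0.556 and with Cidea 0.346, Cd36 with Pparg 0.032 and with Cidea 0.436, and Pparg with Cidea 0.522. Within gonadal males Lpin1 with Mttp was 0.387 and with Cidea -0.563, Mttp with Pparg 0.243 and with Cidea 0.146, Cd36 with Pparg -0.355 and Pparg with Cidea 0.803. Within gonadal females Lpin1 with Mttp was 0.054, with Cd36 0.353, with Pparg -0.198 and with Cidea 0.136, Mttp with Cd36 0.470 and with Pparg 0.770, Cd36 with Cidea 0.571 and Pparg with Cidea 0.327. Without the wide arrays the pooled value of Lpin1 with Pparg was -0.873 (-0.867 also without XY- 30), Mttp with Pparg -0.578 (-0.527) and Cd36 with Cidea -0.240. With group means removed as well, Lpin1 had 0.24 with Mttp, -0.126 with Cd36, -0.56 with Pparg and -0.63 with Cidea. Mttp then had 0.248 with Cd36, 0.214 with Pparg and 0.179 with Cidea. Cd36 had -0.167 with Pparg and 0.29 with Cidea, and Pparg had 0.742 with Cidea. Without the 2 arrays farthest from the first gene's median, Mttp with Pparg was -0.536 and Cd36 with Cidea -0.238. With 1 array left out the ranges were 0.647 to 0.755 for Lpin1 with Mttp, -0.600 to -0.185 with Cd36, -0.776 to -0.652 with Pparg and 0.310 to 0.536 with Cidea. They were -0.470 to 0.000 for Mttp with Cd36, -0.410 to -0.095 with Pparg and 0.547 to 0.719 with Cidea, and 0.181 to 0.368 for Cd36 with Pparg, -0.165 to 0.094 for Cd36 with Cidea and -0.131 to 0.103 for Pparg with Cidea.

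Between gonadal types 809 features passed, 1707 with array weights, and 393 to 1129 with 1 animal left out (393 without XY-Sry 19, 404 without XX Sry 31, 481 without XX Sry 18, 493 without XX 2, 532 without XY-Sry 27). For XX minus XY the 6 became 10 with scaled arrays, 12 with array weights, 13 without XY- 30, 0 without the wide arrays, 14 without these and XY- 30, and 2 to 13 with 1 animal left out (2 without XX Sry 18, XY-Sry 14, XX 29, XX 6, XY- 24 or XY- 22, and 3 without XX Sry 9, XY-Sry 27, XY-Sry 20, XX 21, XX 35, XY- 12 or XY- 3). No interaction passed in any of these fits. Of the pathway genes 6 became 12 with quantile normalization, 10 with array weights and 3 to 9 with 1 animal left out (3 without XX Sry 31, XY-Sry 19, XY-Sry 27, XX 2 or XY- 22). Genes short of the threshold passed in some fits: Pltp with scaled arrays (limma adjusted p = 0.0396), quantile normalization (0.0354) and array weights (0.0411), Apobec1 (0.0446) and Lpin2 (0.0471) with quantile normalization, Hsd17b13 with that (0.0429) and array weights (0.0284), and Ppargc1a with array weights (0.0242). Scarb1 also passed with quantile normalization (0.0479) and array weights (0.0128), and Insig2 with these (0.0326 and 0.00917) and scaled arrays (0.0477). Marker genes ranged from 10 to 16 with 1 animal left out. The causes of these moves were not tested. No pairing was possible, as all animal numbers differ between groups. Each of the 5 genes rests on 1 probe, and with 5 animals per group the intervals for XX minus XY and for the interaction span zero and sizeable differences in both directions.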
